A study of Gallus gallus with 4 samples.

Results

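THRSPA, MID1IP1 and DIO3 are 3 genes grouped here under the thyroid hormone response, MID1IP1 as a relative of THRSPA. Each was read by 1 feature of a chicken microarray. They were picked by their platform symbols from 3494 named genes that had a value on all 4 arrays, out of 45220 features in all. THRSPA is now named THRSP. The choice was made with their ratios already known, so their ratios are given as a description and no p-value is attached to them.

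The study asked which breast muscle transcripts go with feed efficiency, the weight gained per unit of feed. Male broilers of 1 line were caged and fed singly, without any treatment, on a corn and soy diet, and gain and intake were recorded between 6 and 7 weeks of age. High efficiency muscle RNA, labelled with Cy5, was set against low efficiency muscle RNA, labelled with Cy3, on each of 4 two-colour arrays described as biological replicates. Whether 1 bird or a pool of birds stood behind each channel is not stated. No dye was swapped (0 arrays), so an effect of the dye and an effect of efficiency cannot be told apart. All values are log2 ratios with the median of each array at 0, where a value of 1 is a doubling of the ratio. Positive values are read as higher in high efficiency muscle. That direction is likely rather than certain, because the numerator is not stated and the reading rests on high efficiency being channel 2. If Cy3 was the numerator, every sign below turns. Signals of single dyes were not analysed here, so there are no levels against which to check the tissue label, and the number of arrays limits the precision. In a tissue sample, fewer cells of a type and less RNA per cell cannot be told apart.

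Thyroid hormone acts through nuclear receptors that sit on DNA with a retinoid X receptor, and its strength inside a cell depends on deiodinases. DIO2 converts the prohormone thyroxine to the active form T3, whereas DIO3 removes an inner-ring iodine and inactivates both. THRSP, also called Spot 14, is a small protein induced by thyroid hormone and by carbohydrate feeding in liver and fat, where it promotes fatty acid synthesis. MID1IP1 is its relative. In mammals it binds acetyl-CoA carboxylase, the enzyme that commits carbon to fatty acids, and promotes its assembly into active filaments, and it can pair with THRSP. In birds, fatty acids are made mainly in the liver.

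THRSP had the highest ratio of the 3. It stood at 0.84, 0.90, 0.93 and 0.89 on arrays 1 to 4, a mean of 0.89 ± 0.04 (SD, n = 4) or 1.85-fold higher in high efficiency muscle. The 4 values lay within 0.085 of each other, and 96.7% of named genes had a larger SD over the arrays. THRSP was the 20th highest of the 3494 genes by mean and exceeded 97.5% to 98.6% of them on each array. Over all 31722 features measured on every array, 1.77% had a higher mean.

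MID1IP1 stood at 0.50, 0.56, 0.62 and 0.77, a mean of 0.61 ± 0.12 (SD, n = 4) or 1.53-fold higher. All 4 arrays were above 0, with array 4 the highest at this centring. As deposited, array 1 (0.31) stood above array 4 (0.26). MID1IP1 was 65th from the top, and it exceeded 88.9% of named genes on array 1 and 97.2% on array 4. Its SD was nearer to the typical gene than that of THRSP, with 64.3% of genes more variable and a median SD of 0.17 over all genes.

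DIO3 was on the other side of 0. Its ratios were -1.02, -0.45, -0.57 and -0.67, a mean of -0.68 ± 0.25 (SD, n = 4), which is 1.60-fold lower in high efficiency muscle. With this centring array 1 was the lowest, at 2.03-fold lower, and the other 3 ranged from 1.36-fold to 1.59-fold lower. As deposited, array 1 (-1.21) stood close to arrays 3 (-1.14) and 4 (-1.19). DIO3 was 229th from the bottom of the 3494 genes, a less extreme place than that of THRSP or MID1IP1 at the top. The lower tail of all genes was the longer one: the central 90% of genes ended between -1.14 and -1.01 at the bottom of the 4 arrays and between 0.58 and 0.65 at the top. On arrays 1 to 4, 4.89%, 15.0%, 12.8% and 10.5% of genes were lower than DIO3.

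**Figure D1:**
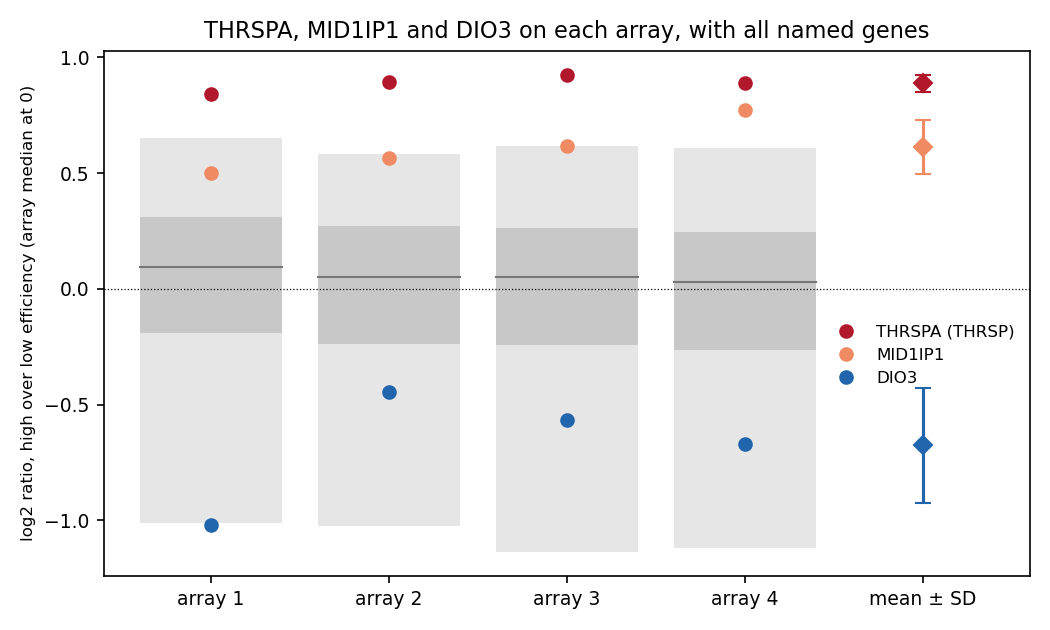
Log2 ratio (high over low efficiency, direction likely, array median at 0) of THRSPA, MID1IP1 and DIO3 on each array as circles, with mean ± SD (n = 4) as diamonds at the right. Pale and dark bands hold 90% and 50% of 3494 named genes and the line is their median. THRSPA lies above the pale band on all 4 arrays, MID1IP1 near its upper edge or, on array 4, above it, and DIO3 inside its lower part or, on array 1, just below it.

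Holding one sign on every array was common: 31.1% of named genes were above 0 on all 4 arrays and 15.6% were below 0 on all 4. The difference between a pair of these genes on the same array does not depend on where 0 is put. THRSP exceeded DIO3 by 1.86, 1.34, 1.49 and 1.56 on arrays 1 to 4, a mean of 1.56 ± 0.22, so that the ratio of THRSP was 2.96-fold that of DIO3. MID1IP1 exceeded DIO3 by 1.29 ± 0.24, between 1.01 and 1.52. THRSP exceeded MID1IP1 by 0.34, 0.33, 0.31 and 0.11, a mean of 0.27 ± 0.11. Array 4, where MID1IP1 was highest with the array median at 0, gave the smallest gap between the relatives.

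The position of 0 matters for the size of each ratio. The deposited array medians were -0.19, -0.49, -0.58 and -0.52, so values without centring are all lower. As deposited, THRSP was 0.65, 0.41, 0.35 and 0.37 on arrays 1 to 4, with a mean of 0.45 ± 0.14. MID1IP1 as deposited was 0.31, 0.08, 0.04 and 0.26, a mean of 0.17 ± 0.13, which on arrays 2 and 3 is close to an equal signal of both dyes. DIO3 as deposited was -1.21, -0.93, -1.14 and -1.19, a mean of -1.12 ± 0.13. With arrays centred on their steadiest features (the 10% of lowest SD), the means were 0.73 for THRSP, 0.45 for MID1IP1 and -0.84 for DIO3. THRSP and MID1IP1 were above 0 and DIO3 below 0 on all 4 arrays under these 3 choices. Over all genes the median was 0.01, -0.15 on the steadiest features and -0.43 as deposited. The spread between arrays moved in opposite ways: centring on the array median lowered the SD of THRSP to 0.04, against 0.14 as deposited, and raised that of DIO3 to 0.25, against 0.13 as deposited.

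**Figure D2:**
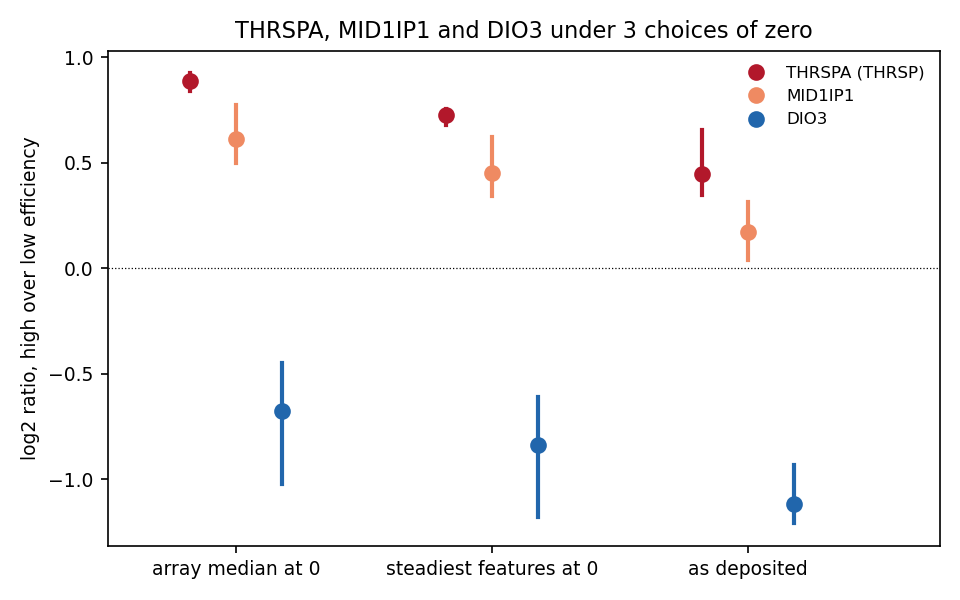
Log2 ratio (high over low efficiency, direction likely) of the 3 genes centred on the array median, centred on the steadiest features, and as deposited. Circles are means over 4 arrays and bars run from the lowest to the highest array. THRSPA and MID1IP1 stay above 0 and DIO3 below 0 in each, and MID1IP1 comes nearest to 0 as deposited, at 0.17.

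The chicken has a second Spot 14 gene, THRSPB, directly beside THRSP in RefSeq's gene table (assembly GRCg7b). Its feature had a value on 3 arrays, -0.55, 0.20 and 0.84 on arrays 1, 2 and 4, on both sides of 0. All 3 deposited values equalled the log2 of a ratio of whole numbers no larger than 12, within 0.0005. The same held for 9.61% of values of named features and for 0 of the 12 values of THRSP, MID1IP1 and DIO3. Whether such values go with low signal was not tested. With values on both sides of 0, no direction is given for THRSPB, and whether the features of the 2 Spot 14 genes share signal was not tested.

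Genes of thyroid hormone supply and action were measured sparsely. Of 49 listed genes, 15 had a named feature and 11 of these had a value on all 4 arrays, DIO3 among them. Among the other 10, 1 rose, 1 fell and 8 did not pass in a limma fit over all named genes (adjusted p under 0.05). Over all 3494 genes 24.6% passed, 18.5% higher and 6.1% lower. Those shares rest on all 4 arrays: without array 1, 2, 3 and 4, 299, 0, 0 and 144 genes were called higher and 105, 4, 5 and 54 lower. The median of the 10 genes was -0.23, against 0.01 over all genes. NCOA2, a coactivator of nuclear receptors, rose (0.44, 0.37, 0.44 and 0.45, mean 0.43 ± 0.04, adjusted p = 0.00936), but stood at -0.02 as deposited. Albumin, ALB, which carries thyroid hormone in blood and is made in liver, fell (-0.84, -0.40, -0.63 and -1.11, mean -0.75 ± 0.30, adjusted p = 0.0259). Neither NCOA2 nor ALB was called without array 2, 3 or 4, and ALB was not called without array 1.

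The activating deiodinase DIO2 had ratios of -0.52, -0.78, 0.20 and -0.24. It averaged -0.33 ± 0.42 and did not pass (adjusted p = 0.256). DIO1, which works mainly in liver and kidney, had a value on 2 arrays, -2.05 on array 2 and -0.12 on array 3. DIO2 was called lower as deposited (-0.78, adjusted p = 0.0319), where the median of all genes lies below 0, and was not tested against DIO3. The receptor THRA stood at 0.11, -0.07, 0.02 and -0.08, a mean of -0.01 ± 0.09 (adjusted p = 0.949), the mean nearest to 0 in the list. The receptor THRB had a value on array 3 alone. RXRG, a partner receptor, averaged -0.25 ± 0.25 (adjusted p = 0.185, but called lower as deposited with adjusted p = 0.0354), and the blood carrier transthyretin, TTR, -0.20 ± 0.70 (adjusted p = 0.655). The transporter SLCO1C1 had a value on array 4 alone. Hormone concentrations were not analysed here.

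Known thyroid hormone targets went both ways. The list joins genes that the hormone raises and genes that it lowers in muscle, heart or liver of mammals or birds, so its name gives no direction. Of 20 measured genes of the list other than THRSP, 5 rose, 4 fell (MYH15 among them) and 11 did not pass, with a median of -0.18. Several had been seen in earlier results of these data. As deposited 0 were called higher and 7 lower, and on the steadiest features 3 higher and 4 lower. Over all 3494 genes, 648 were called higher and 213 lower with the array median at 0. As deposited these counts were 9 and 1142, and on the steadiest features 241 and 414. Without array 2 or array 3, 2 of the 9 target calls made with the array median at 0 remained, and without array 4, 5 did. The remaining 2 were phospholamban, PLN, and the myosin heavy chain MYH15. MYH15 stands in the list only because the listed symbol MYH6 was read as MYH15 through a synonym. Whether the hormone acts on MYH15 was not tested.

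The 5 higher targets all stood below THRSP. MYOD1, a myogenic transcription factor, had a mean of 0.53 ± 0.04 (adjusted p = 0.00799), and the avian uncoupling protein UCP3 one of 0.44 ± 0.10 (adjusted p = 0.0143). The mitochondrial transcription factor TFAM averaged 0.41 ± 0.05 (adjusted p = 0.0105). Malic enzyme ME1, which makes NADPH for fatty acid synthesis and is a classic hormone-induced enzyme of chick liver, averaged 0.32 ± 0.05 (adjusted p = 0.0157). ATP1B1, a subunit of the sodium pump, averaged 0.29 ± 0.05 (adjusted p = 0.0196). None of these 5 was called as deposited, where MYOD1 stood at 0.09, UCP3 at 0.00, TFAM at -0.03, ME1 at -0.12 and ATP1B1 at -0.16. Centred on the steadiest features, ME1 (adjusted p = 0.0745) and ATP1B1 (adjusted p = 0.121) did not pass.

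The 4 lower genes of the target list included the slow and cardiac calcium pump ATP2A2, at -0.75, -0.66, -0.82 and -0.75 (mean -0.75 ± 0.07, adjusted p = 0.00725). Its inhibitor PLN averaged -2.02 ± 0.04 (adjusted p = 0.000717). In rodent heart the hormone raises the pump and lowers its inhibitor. Here both were lower, and whether the hormone had a part in either ratio was not tested. MYH15, named MYH6 on the platform, averaged -2.28 ± 0.06 (adjusted p = 0.000717). PDK4, a kinase that restrains pyruvate oxidation, averaged -0.22 ± 0.06 (adjusted p = 0.0409). ATP1B1 and PDK4 were named after their values were seen. The growth genes GHR, the growth hormone receptor (-0.58 ± 0.42, adjusted p = 0.0890), and IGF1 (-0.56 ± 0.81, adjusted p = 0.300) did not pass. GHR was called lower as deposited (-1.02, adjusted p = 0.0244).

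In the fatty acid synthesis programme, in which THRSP and MID1IP1 act, 2 of the 9 other measured genes rose and 0 fell by limma (3 and 0 at an unadjusted p under 0.05). That is 22.2% called higher, against 18.5% over all genes, and the median of the 9 was -0.02. Besides ME1, the second was BRCA1, best known for DNA repair and listed because it binds phosphorylated acetyl-CoA carboxylase (0.29, 0.44, 0.86 and 0.35, mean 0.49 ± 0.26, adjusted p = 0.0490). It stood at 0.05 as deposited, and centred on the steadiest features neither gene passed (BRCA1 adjusted p = 0.113). Neither was called when any array was left out.

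The other genes of this programme given next were not called with the array median at 0, where they were tested. Acetyl-CoA carboxylase ACACA, the partner of MID1IP1, stood at -0.12, -0.01, 0.78 and -0.30, on both sides of 0, with a mean of 0.09 ± 0.47 (adjusted p = 0.787). Fatty acid synthase FASN had values of 0.14, -0.10 and 0.24 on arrays 1 to 3 and none on array 4, so it was not tested. The desaturase SCD averaged -0.16 ± 0.48 (adjusted p = 0.616), and PGD, which makes NADPH, -0.02 ± 0.14 (adjusted p = 0.887). The lipogenic transcription factor SREBF1 had ratios of -0.79, -0.27, -0.17 and 0.13, a mean of -0.27 ± 0.38 (adjusted p = 0.299), and was called lower as deposited (-0.72, adjusted p = 0.0269). NR1H3, the liver X receptor that switches on SREBF1 in liver, averaged 0.21 ± 0.09 (adjusted p = 0.0608). The SDs of ACACA, SCD and SREBF1 were above the median SD of all genes, 0.17, which limits what the test could call there.

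MID1IP1 was first found as a partner of MID1, a ubiquitin ligase on microtubules that works with protein phosphatase 2A. MID1 itself stood at 0.08, 0.02, 0.07 and 0.24, a mean of 0.10 ± 0.09 (adjusted p = 0.270). Of the 7 measured genes of this group other than MID1IP1, 1 rose and 0 fell (also 1 and 0 at an unadjusted p under 0.05), with a median of -0.14. That is 14.3% called higher, against 18.5% over all genes. The riser was the phosphatase regulatory subunit PPP2R2A, at 0.35, 0.52, 0.39 and 0.29 (mean 0.39 ± 0.10, adjusted p = 0.0177), below MID1IP1 on 4 of 4 arrays. It was at -0.05 as deposited, missed the threshold on the steadiest features (adjusted p = 0.0575), and was not called when any array was left out. The catalytic subunits PPP2CA (-0.08 ± 0.22) and PPP2CB (-0.14 ± 0.13) and the MID1 homologue MID2 (-0.48 ± 0.58) did not pass. As deposited these 3 were called lower (adjusted p = 0.0460, 0.0396 and 0.0464), as was PPP2CB on the steadiest features (adjusted p = 0.0498).

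Hedgehog, hypoxia and TGF-beta signals act on DIO3 transcription in mammals or birds. Of 14 measured genes of a list of these pathways, which also holds DLK1, 0 rose and 0 fell by limma with the array median at 0 (0 higher and 1 lower at an unadjusted p under 0.05), and their median was 0.01. Over all 3494 genes 24.6% were called with the array median at 0, and as deposited 9 were called higher and 1142 lower. As deposited 0 of the 14 were called higher and 4 lower (PTCH1, TGFBR2, DLK1 and HIF1A), with a list median of -0.43, the same as that of all genes. The lowest mean was that of the hedgehog receptor PTCH1, itself a hedgehog target, at -1.16, -0.89, 0.26 and -0.76 (mean -0.64 ± 0.62, adjusted p = 0.167). Array 3 lay on the other side of 0. The TGF-beta receptor TGFBR2 averaged -0.31 ± 0.24 (adjusted p = 0.126) and the hypoxia factor HIF1A, over 2 features, -0.13 ± 0.26 (adjusted p = 0.478). These genes were named after their values were seen.

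**Figure D3:**
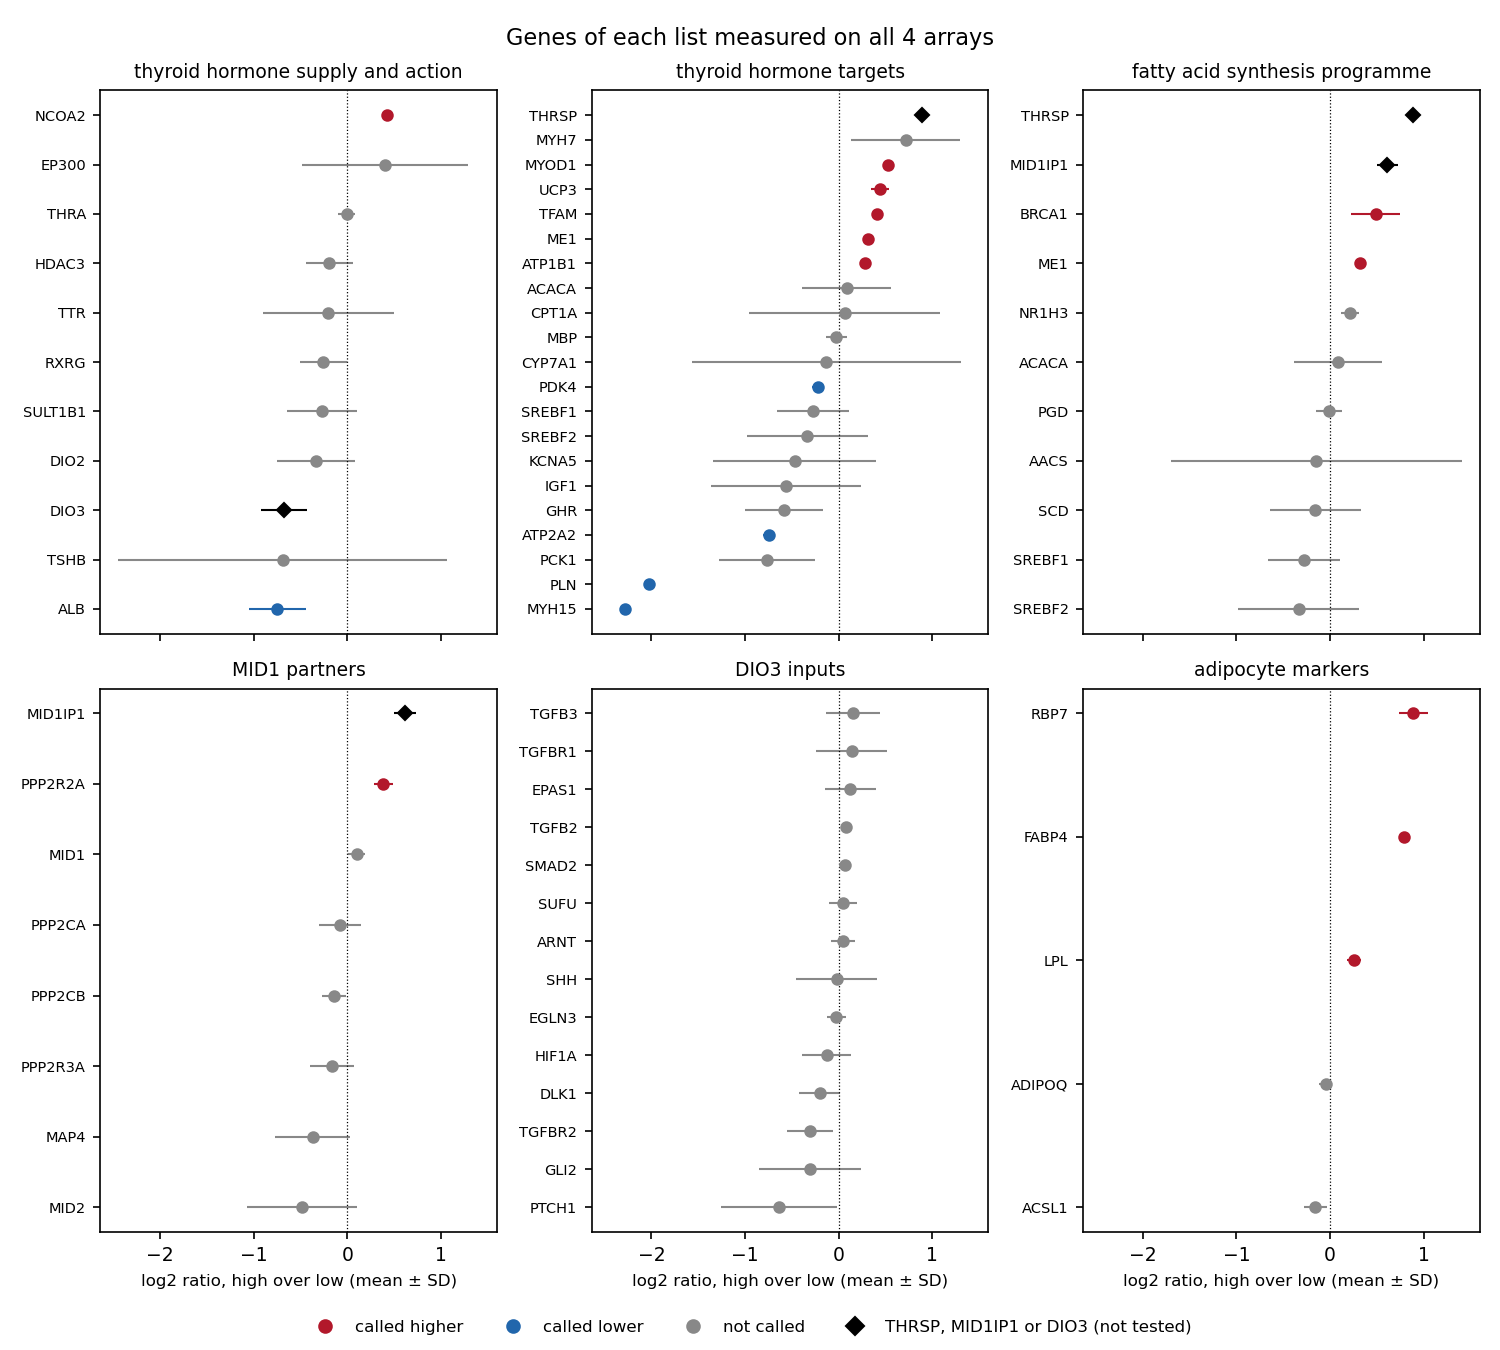
Mean log2 ratio (high over low efficiency, direction likely, array median at 0) ± SD over 4 arrays for the measured genes of 6 lists. Colour shows the limma call at adjusted p under 0.05 and black diamonds are THRSP, MID1IP1 and DIO3, which were not tested. THRSP has the highest mean of the targets and lipid synthesis genes shown. On single arrays some others were higher, such as MYH7 at 1.31 on array 3, against 0.93 for THRSP. No gene of the DIO3 input list is called with this centring. As deposited 4 of them are called lower, as are 1142 of all 3494 genes.

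THRSP is abundant in fat, so markers of fat cells stand beside it. Of 18 listed adipocyte markers, 7 had a named feature and 5 a value on every array. Of these, 3 rose and 0 fell by limma (also 3 and 0 at an unadjusted p under 0.05), with a median of 0.26 and array medians between 0.17 and 0.34. Over all 3494 genes 18.5% were called higher and 6.1% lower with the array median at 0. As deposited 9 of all genes were called higher and 1142 lower, and on the steadiest features 241 and 414. Of the 5 markers, 0 were called higher and 2 lower as deposited, with a median of -0.19. On the steadiest features 2 of them were called higher and 1 lower. RBP7, a retinoid carrier, had ratios of 1.01, 0.84, 1.01 and 0.69 (mean 0.89 ± 0.15, adjusted p = 0.00877). FABP4, the fatty acid carrier of fat cells that is also made in small vessels, had 0.79, 0.76, 0.87 and 0.74 (mean 0.79 ± 0.06, adjusted p = 0.00712). As deposited neither passed (RBP7 0.45, adjusted p = 0.0597; FABP4 0.35, adjusted p = 0.0685). The mean of RBP7 equalled that of THRSP to 2 decimals and that of FABP4 was lower.

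The other fat markers stood lower. Lipoprotein lipase LPL, which muscle makes too, averaged 0.26 ± 0.08 (adjusted p = 0.0328), lost its call on the steadiest features (adjusted p = 0.225), and was below 0 as deposited (-0.19). Adiponectin, ADIPOQ, a hormone made by fat cells, stood at -0.12, -0.01, 0.03 and -0.09, a mean of -0.05 ± 0.07 (adjusted p = 0.532), and was called lower as deposited (-0.49, adjusted p = 0.0338). ACSL1 averaged -0.16 ± 0.13 (adjusted p = 0.175), and was called lower as deposited (-0.60, adjusted p = 0.0367) and on the steadiest features (-0.32, adjusted p = 0.0438). PPARG, the master regulator of fat cell formation, was at 0.84, -0.47 and 0.26 on arrays 1 to 3, and the leptin receptor LEPR at -0.74, -0.48 and -0.22 on arrays 1, 3 and 4. The list had 0 calls without array 2 or array 3, with 3 of its genes at an unadjusted p under 0.05 in each case, and 2 without array 1 or array 4. Summed levels cannot be given from ratios, and the part of fat cells in the THRSP ratio was not tested.

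Markers of other cells that breast muscle holds were mixed. Over all 3494 genes 18.5% were called higher and 6.1% lower, beside which the counts below stand. Muscle fibre markers had 3 higher and 2 lower of 11 (median 0.06), and satellite cell markers 1 higher and 1 lower of 6 (median -0.02). Among 12 markers of fibroblasts and matrix, 2 were called higher and 3 lower (2 and 5 at an unadjusted p under 0.05), with a median of -0.10. Endothelial markers had 0 called of 4 by limma (0 also at an unadjusted p under 0.05; median -0.03). Leukocyte markers had 0 higher and 3 lower of 9 (0 and 6 at an unadjusted p under 0.05), and their median was -0.49, between -0.53 and -0.23 on single arrays. Among erythrocyte markers 1 of 4 rose and 0 fell by limma (1 and 1 at an unadjusted p under 0.05), with a median of -0.17. These 4 include ALAS1, which was read for the listed ALAS2 through a synonym. The riser was the alpha globin HBA1 (0.43 ± 0.02, adjusted p = 0.00893, but -0.01 as deposited). The globins HBE1 and HBZ averaged -0.39 ± 0.32 (adjusted p = 0.123) and -0.80 ± 0.91 (adjusted p = 0.2155). Of the 4 deposited HBZ values, 3 equalled the log2 of a ratio of whole numbers no larger than 12. HBE1 and ALAS1 were called lower as deposited (adjusted p = 0.0284 and 0.0443). The 9 leukocyte markers had 8 genes lower as deposited and 5 on the steadiest features, while as deposited 0 genes of any list named here were called higher. The 12 fibroblast and matrix markers had 7 lower as deposited, and 6 lower and 1 higher on the steadiest features. Over all 3494 genes, 1142 were called lower as deposited and 414 on the steadiest features. With the array median at 0, the leukocyte, fibroblast and matrix, and erythrocyte medians lay on the same side of 0 as DIO3. The satellite cell (-0.02) and endothelial (-0.03) medians were also below 0, but close to the median of all genes (0.01). As deposited the median of every list named here was below 0, as was that of all genes (-0.43). The part of any of these cells in the DIO3 ratio was not tested.

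The named genes nearest to each of the 3 were found by the root mean square difference of the log2 ratio over the 4 arrays. For THRSP the nearest was MRRF by its platform symbol, read as MRRFP1 after the symbol update (difference 0.040). MRRF is a mitochondrial ribosome recycling factor, and which of the 2 the feature reads was not tested. Proenkephalin, PENK (0.046), the histone methyltransferase SETDB1 (0.10), the splicing factor BUD31 (0.11) and FABP4 (0.11) followed. For MID1IP1 the nearest were the pyruvate dehydrogenase kinase PDK3 (0.074), EEF1E1 (0.085), the vesicle coat gene SEC24A (0.089), MCTS1 (0.089) and the tendon transcription factor scleraxis, SCX (0.092). For DIO3 they were RAB3GAP2 (0.078), the mesenchymal transcription factor PRRX1 (0.13), ICOSLG (0.16), the hyaluronan-binding TNFAIP6 (0.17) and the LIM protein FHL2 (0.18). RAB3GAP2, at -1.07, -0.32, -0.51 and -0.62, shared with DIO3 a lowest value on array 1 and a highest on array 2. Likeness over 4 arrays is a description of these values.

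**Figure D4:**
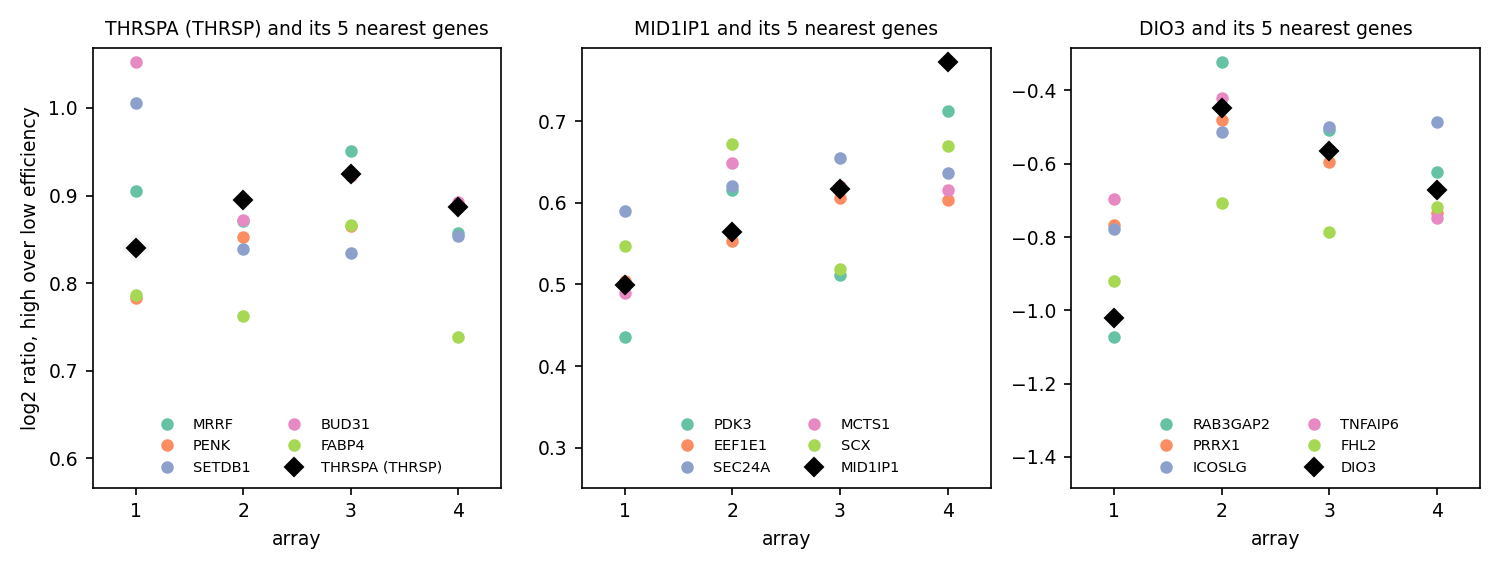
Log2 ratio (high over low efficiency, direction likely, array median at 0) on arrays 1 to 4 for THRSPA, MID1IP1 and DIO3 as black diamonds and for the 5 named genes nearest to each as circles. The vertical axes differ between panels and do not start at 0. Of the neighbours of DIO3, RAB3GAP2 lies at a difference of 0.078 and the others at 0.13 to 0.18. Those of MID1IP1 lie at 0.074 to 0.092.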

How the data were processed

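Per the file's values, the authors deposited log2 ratios of the 2 dyes within each of 4 arrays. The scanner, background correction and normalization are not stated there or in the labels. Ceiling values of 16.6 or more were treated as missing, and 160 features within 0.005 of 0 on at least 3 arrays were left out. Each array was centred on its median. Symbols were updated through unique synonyms in RefSeq (437 of 4391 named features). Through such synonyms MYH6 was read as MYH15, ALAS2 as ALAS1 and MRRF as MRRFP1. Genes with several features (201) took their mean.

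An intercept-only model was fitted to all genes (limma 3.58.1, R 4.3.3, lmFit and eBayes), two-sided, with Benjamini-Hochberg adjustment at 0.05, and checked on simulated data. The p-values set the distance of each mean from 0 against the spread between the 4 arrays alone. The variance of each gene was drawn toward that of all genes. That spread may be partly technical, and the distance depends on where 0 is put. Genes, lists and members were chosen with earlier results of these data known. Up to 6 called genes of smallest p were named from each list other than the muscle fibre, satellite cell, fibroblast and matrix, and leukocyte markers. Those lists are described by counts and medians alone. Also named were receptors, deiodinases, transporters, ACACA, FASN, SREBF1 and MID1 where measured, 5 nearest genes per member and neighbours within 3 genes. Other genes were named after their values were seen. Alternatives were centring, scaling, quantile normalization, missing values, features at a ratio of 1, median over features, robust moderation, array weights, threshold and each array left out. Protein and promoter sequences were not analysed here.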

Additional observations from a re-analysis of the deposited data

Results flagged for a closer look

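Among the genes named or plotted, 82 were examined, the erythrocyte markers not among them. Of these 82, 4 had 1 array far from the other 3, by the gap to the nearest array as a share of the whole range. Chance gives about 1 in 20 such groups, and 0 of THRSP, MID1IP1 and DIO3 were among them. SREBF2, a regulator of cholesterol synthesis, had -1.30 on array 4, against -0.09 to 0.09 on the others (share 0.874). NCOA2 had 0.37 on array 2, against 0.44 to 0.45 on the others (share 0.842), so its whole range was small. SETDB1 had 1.01 on array 1, against 0.83 to 0.85 (share 0.884), and ICOSLG had -0.78 on array 1, against -0.51 to -0.49 (share 0.901).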

How the results depend on the processing

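The ratios of THRSPA, MID1IP1 and DIO3 kept their sign under every alternative run on them. They moved by more than their SD as deposited (0.45, 0.17 and -1.12) and, for THRSPA and MID1IP1, on the steadiest features (0.73 and 0.45). Without single arrays THRSPA ranged from 0.87 to 0.90, MID1IP1 from 0.56 to 0.65 and DIO3 from -0.75 to -0.56. The calls of other genes were less stable. As deposited, 9 genes were called higher and 1142 lower, with 5 supply and action genes, 7 targets, 1 fatty acid synthesis gene, 5 MID1 partners, 4 DIO3 inputs and 2 adipocyte markers called, 0 of these higher. The median of all genes then was -0.43. On the steadiest features it was -0.15, and 241 genes were called higher, 414 lower and 0 of fatty acid synthesis (2 at an unadjusted p under 0.05). Scaling to 1 median absolute deviation, quantile normalization, values on at least 3 arrays and robust moderation each left 1 fatty acid synthesis gene called. At an adjusted p under 0.01, 130 genes were called higher and 41 lower, with 1 supply and action gene, 4 targets, 0 fatty acid synthesis genes and 0 MID1 partners (3 and 1 of the last groups at an unadjusted p under 0.05). Leaving out 1 array gave 0 to 299 genes higher (724 and 727 at an unadjusted p under 0.05 where 0 were called, without arrays 3 and 2), 4 to 105 lower, and 0 to 1 supply and action genes, 2 to 6 targets and 0 to 2 adipocyte markers. Fatty acid synthesis genes and MID1 partners then had 0 calls each (from 2 to 3 and from 1 to 3 at an unadjusted p under 0.05). Each of these fits had 1 array fewer, and why their counts differ was not tested. Single-dye signal over background was not analysed here, so dim features were not filtered. Array weights, median over features and keeping features at a ratio of 1 left all these counts within 1.5 times.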

Other observations

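Genes beside the 3 members in the RefSeq gene table (GRCg7b), taken up to 3 genes away on either side, were measured in part. Near THRSP, NDUFC2, a complex I subunit, rose (0.32 ± 0.08, adjusted p = 0.0202), at 0.25 to 0.43 on the 4 arrays and below THRSP on each, but it stood at -0.12 as deposited and was not called when any array was left out, whereas KCTD14 stood at -0.02, -0.39, 0.54 and -0.41 (adjusted p = 0.810). Near MID1IP1, the tetraspanin TSPAN7 was at -0.16, -0.11, -0.24 and -0.30 (mean -0.20 ± 0.08, adjusted p = 0.0614), and was called lower as deposited (-0.64, adjusted p = 0.0289) and centred on the steadiest features (-0.36, adjusted p = 0.0223). Near DIO3, DLK1, a Notch-like regulator of muscle and fat cell growth, averaged -0.20 ± 0.22 (adjusted p = 0.222, but called lower as deposited with adjusted p = 0.0328), and the dynein heavy chain DYNC1H1 0.05 ± 0.44 (adjusted p = 0.872). The remaining neighbours had no complete named feature among those used here.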
